A study of Mus musculus with 8 samples.

Results

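Contacts between the stretches on either side of the Kcnj2 to Sox9 region of mouse chromosome 11 were counted in capture Hi-C maps, an assay that ligates neighbouring chromatin, enriches fragments from the targeted locus and counts how often any pair of positions was joined. The left flank ran from 109010001 to 110910000 and the right flank from 113040001 to 114880000 (mm9). All bin pairs with 1 bin in each flank were taken, so the choice used position alone and no measured value. They made up 34960 of the 172578 pairs of 10 kb bins in the map, or 361 of the 761 pairs of 100 kb blocks that lie at least 2 Mb apart. Partners were 2.14 to 5.86 Mb apart. Left blocks are numbered 1 to 19 from the outer end towards Kcnj2, and right blocks 1 to 19 from the Sox9 side outwards, the last of these spanning 40 kb.

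The tissue was limb buds, dissected from E12.5 embryos and pooled from 3 to 8 embryos per condition. There were 8 homozygous mutants, all on the G4 embryonic stem cell background and each with 1 library. InvIntra, InvC, InvC∆Bor and BorKnockIn carry an inversion or an insertion by their names, and ∆CTCF, ∆BorC1, ∆BorC1-2 and ∆BorC1-4 are called the deletion libraries. Their labels name edits of the boundary (Bor) and of CTCF sites (C1 to C4) between Kcnj2 and Sox9, a boundary insertion and inversions, and no label names an edit within either flank or the exact bases changed. The wildtype library was not analysed here, so no unedited locus stood beside them. With 1 library per genotype there was no replicate error and no test could be made. Every interval below is a 95% interval for counting error only, and read pairs were taken as independent.

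In mammalian chromosomes contact falls with distance, and loops that stop at CTCF sites divide the sequence into domains whose inside contacts exceed those across their boundaries. Over longer distances, domains of like activity tend to meet, so that gene-dense stretches often contact other gene-dense stretches across a gene desert. Kcnj2, a potassium channel gene, and Sox9, a transcription factor gene needed for cartilage, sit at the ends of such a desert. The left flank holds Rgs9, Gna13 (a G protein subunit), Arsg, Prkar1a (a regulatory subunit of protein kinase A), Fam20a, the Abca transporter genes, Map2k6 (a kinase that activates p38) and Kcnj16 (a potassium channel). On the right lie Slc39a11 (a zinc transporter), Sstr2 (a somatostatin receptor), Cog1 (a Golgi complex subunit), Cdc42ep4, Sdk2 (an adhesion molecule), Rpl38 (a ribosomal protein), Dnaic2, Btbd17, Gprc5c and Cd300a. These 19 genes were placed in blocks from general knowledge of mm9, to within about 1 block and without an mm9 annotation, and all 19 stood in this order in RefSeq (GRCm38). RefSeq listed 0 protein-coding genes between Map2k6 and Kcnj16 and 0 between Sdk2 and Rpl38, which correspond here to left blocks 15 to 18 and right blocks 10 to 14.

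Of the 3 promoter sequences shown, that of Map2k6 comes from the left stretch that led the contacts, and those of Sstr2 and Slc39a11 from the right stretch that it met. They are RefSeq sequences of GRCm38.p6, from 250 bases before to 50 after the start, read 5′ to 3′ on the gene's own strand (plus for Map2k6 and Sstr2, minus for Slc39a11), with CpG dinucleotides in capitals. For Map2k6 and Slc39a11, which have 3 and 2 listed starts, the outermost start is shown.
Map2k6: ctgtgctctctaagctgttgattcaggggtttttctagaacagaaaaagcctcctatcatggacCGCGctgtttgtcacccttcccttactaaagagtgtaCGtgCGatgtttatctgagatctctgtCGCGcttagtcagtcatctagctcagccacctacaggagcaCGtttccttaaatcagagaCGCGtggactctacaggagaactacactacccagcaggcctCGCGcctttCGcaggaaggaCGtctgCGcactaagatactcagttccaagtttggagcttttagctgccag
Sstr2: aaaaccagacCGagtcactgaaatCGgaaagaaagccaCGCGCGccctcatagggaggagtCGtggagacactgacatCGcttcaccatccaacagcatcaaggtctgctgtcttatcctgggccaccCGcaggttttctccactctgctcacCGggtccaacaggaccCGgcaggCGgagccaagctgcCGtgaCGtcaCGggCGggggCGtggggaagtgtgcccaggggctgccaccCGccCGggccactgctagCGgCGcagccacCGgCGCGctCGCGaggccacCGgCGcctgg
Slc39a11: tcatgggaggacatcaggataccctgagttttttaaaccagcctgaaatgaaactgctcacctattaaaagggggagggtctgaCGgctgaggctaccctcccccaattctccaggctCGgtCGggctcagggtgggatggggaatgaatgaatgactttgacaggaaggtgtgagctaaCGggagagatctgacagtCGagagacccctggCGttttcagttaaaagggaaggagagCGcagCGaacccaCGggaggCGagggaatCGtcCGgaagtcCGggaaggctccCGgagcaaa
They held 14, 27 and 14 CpG, against a median of 7 over all 32851 promoters in the table, of which 36.3% held at least 14. Contact counts in 10 kb bins do not resolve a promoter, so the sequences show which genes lie there and no site of contact.

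Each library's contacts were divided by what its own map gave for that distance: the mean over all bin pairs within 50 kb of the same separation, flank or not. An observed over expected value of 1 is thus the library's average for the distance. Beyond 4.02 Mb the map holds left-right pairs only, so values there average 1 by construction. Left-right contacts numbered 61234 in InvC∆Bor, the shallowest library with 3056502 contacts in all, to 181301 in ∆BorC1-4, the deepest with 9045698. A block pair held a median of 147 to 414.5 contacts by library, leaving out right block 19. In BorKnockIn the right flank was read 1 bin (10 kb) to the left, since its coverage profile matched the others best at -12 kb (r = 0.909, against 0.363 with no shift).

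The block pairs that met most often joined the Map2k6 stretch on the left to the start of the right flank and to the Slc39a11, Sstr2 and Cog1 stretch. In all 8 libraries 12 of the 361 block pairs (3.32%) stood at 1.5 times the expectation or more, while 48 of all 761 pairs at least 2 Mb apart (6.31%) did so. The share was thus lower for the left-right pairs than for all 761, which include them. Neither flank spans 2 Mb, so every other pair among the 761 has at least 1 block between the flanks. Beyond 4.02 Mb the map holds left-right pairs only, so these shares do not compare like distances. The 12 had a right partner in blocks 1 to 5, and 8 of them joined left blocks 12 to 14 to these 5, among 15 possible pairs. These 8 had left block 13 or 14, and no pair with left block 12 was among them. Another 3 joined left block 6, where Prkar1a and Fam20a were placed, to right blocks 1, 3 and 4. The last joined left block 15 to right block 1. With 2-fold as the limit 2 pairs were left (0.554%), against 23 of all 761 (3.02%).

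**Figure D1:**
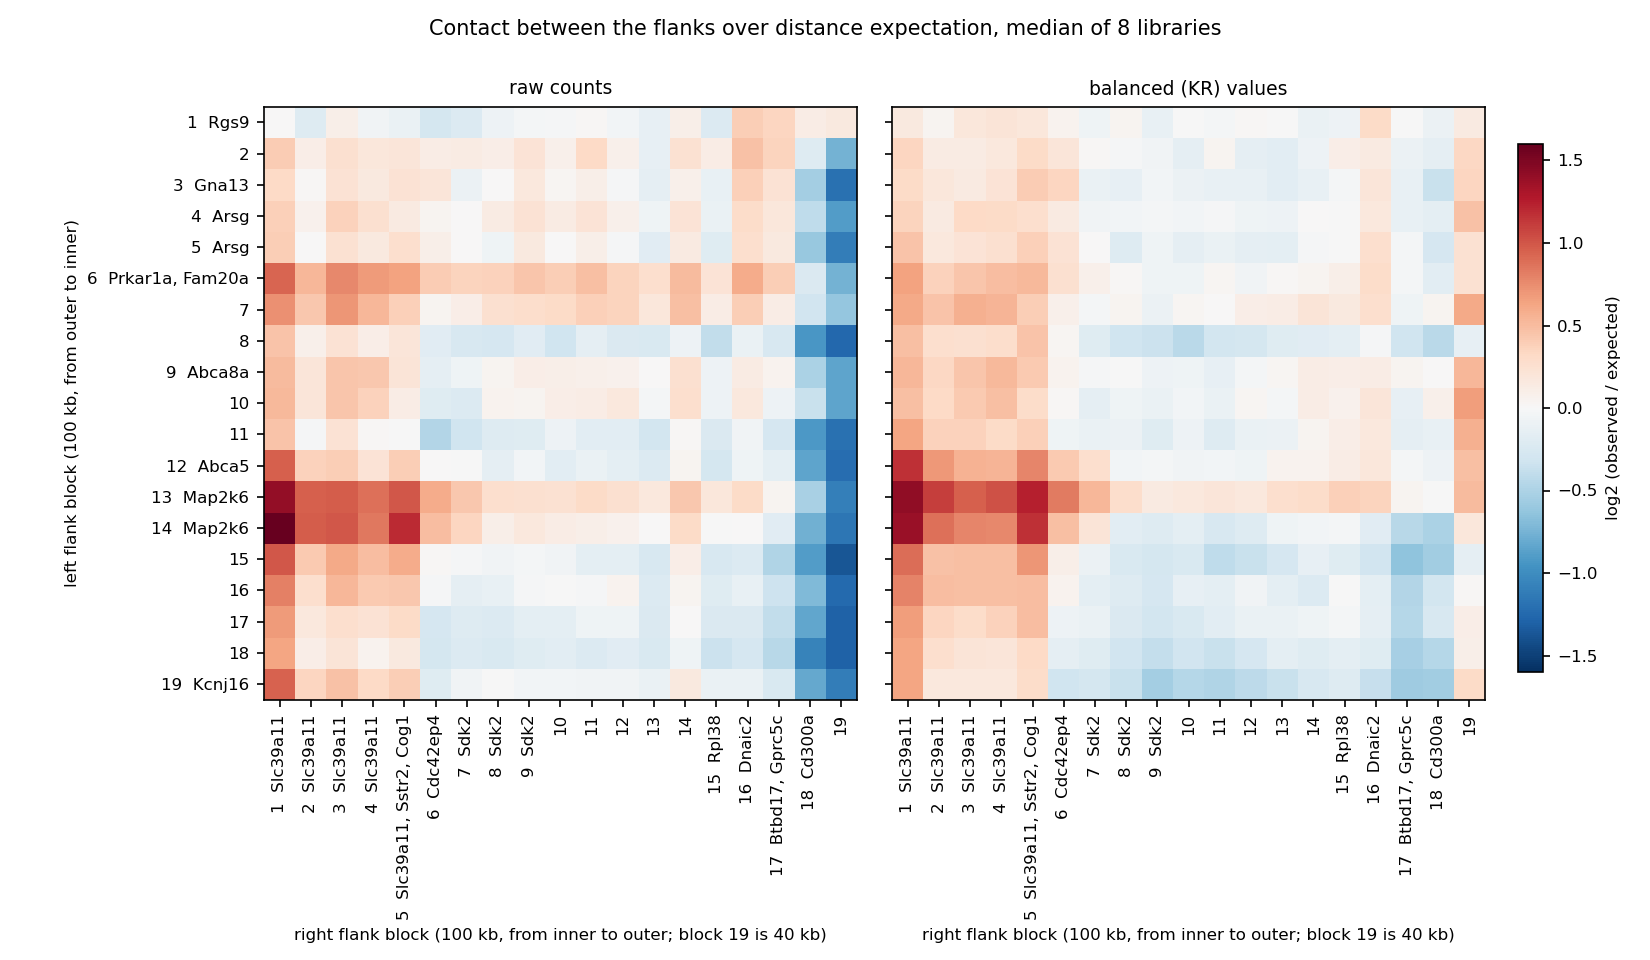
Observed over expected contact for each pair of left block (rows) and right block (columns) on a log2 colour scale, median of 8 libraries, from raw counts and from balanced (KR) values, with the approximate place of named genes. The darkest red lies where left blocks 13 and 14 (Map2k6) meet right blocks 1 and 5, while the blue columns of right blocks 18 and 19 in the raw panel are paler or red in the balanced panel.

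By the distance expectation of raw counts, the highest block pair in the deepest library was left block 14 (110310001 to 110410000, Map2k6) with right block 1 (113040001 to 113140000), 2.73 Mb apart from start to start. It was chosen in ∆BorC1-4, where 2867 contacts gave 3.50 times the expectation. Read in the libraries that did not choose it, the value was 3.62 in ∆CTCF (interval 3.42 to 3.81), 3.29 in ∆BorC1 (3.11 to 3.48) and 3.15 in ∆BorC1-2 (3.00 to 3.31). It was 2.50 in BorKnockIn (2.34 to 2.67), 2.24 in InvC (2.10 to 2.39), 2.80 in InvIntra (2.65 to 2.94) and 2.86 in InvC∆Bor (2.67 to 3.06). So each of the 8 libraries held more than 2 times the expected contact there. By this expectation the deletion libraries were highest and InvC lowest. That order was not kept when the contacts of the pair were divided by all contacts of the library. InvC∆Bor then stood above ∆BorC1 and ∆BorC1-2, and BorKnockIn was lowest. The median of 8, 3.01, was 2.60 with balanced values, 2.38 with coverage in the expectation and 2.04 with left-right pairs alone as expectation. Divided into 50 kb blocks, the highest of the 4 parts reached 4.09.

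Its neighbour, left block 13 (110210001 to 110310000, the other Map2k6 block), met right block 1 at 2.89 times the expectation in ∆BorC1-4 and at 2.41 (BorKnockIn) to 3.27 (∆CTCF) in the other 7 libraries. Left block 13 differed from block 14 in that the correction for coverage left its value in place, with a median of 2.66 in both the balanced values and the coverage expectation. By these values, and in InvC also in raw counts (2.46 against 2.24), block 13 stood above block 14.

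The stretch with Sstr2 and Cog1 was the other strong partner. Right block 5 (113440001 to 113540000) met left block 14 at 2.69 times the expectation in ∆CTCF, 2.57 in ∆BorC1-4 (where it was chosen), 2.47 in ∆BorC1-2 and 2.37 in ∆BorC1. It stood at 1.63 in InvC, 1.88 in InvC∆Bor, 1.99 in BorKnockIn and 2.18 in InvIntra. By this expectation InvC was lowest and ∆CTCF highest, and their intervals (1.49 to 1.78 and 2.50 to 2.89) did not overlap. Divided by all contacts of the library instead, the pair was lowest in BorKnockIn and highest in ∆BorC1-4, and InvIntra stood above ∆BorC1. With left block 13 the same block stood at 1.63 (InvC) to 2.59 (∆CTCF) in the 7 libraries that did not choose it. With coverage in the expectation this last pair rose to a median of 2.48.

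The remaining 4 of the 8 highest pairs lay within the same stretches or beside them. Left 14 with right 2 ran from 1.496 (InvC) to 2.39 (∆CTCF) in the other 7 libraries and passed 1.5 in 6 of them. Left 15, in the gene-free stretch next to Map2k6, met right 1 at 1.78 (BorKnockIn) to 2.30 (∆CTCF). Left 14 with right 3 ran from 1.61 (InvC) to 2.2 (∆BorC1), and left 13 with right 2 from 1.67 (InvC) to 2.25 (∆CTCF). InvC or BorKnockIn was thus the lowest library in each of the 8, and ∆CTCF the highest of those not used for the choice in 7.

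**Figure D2:**
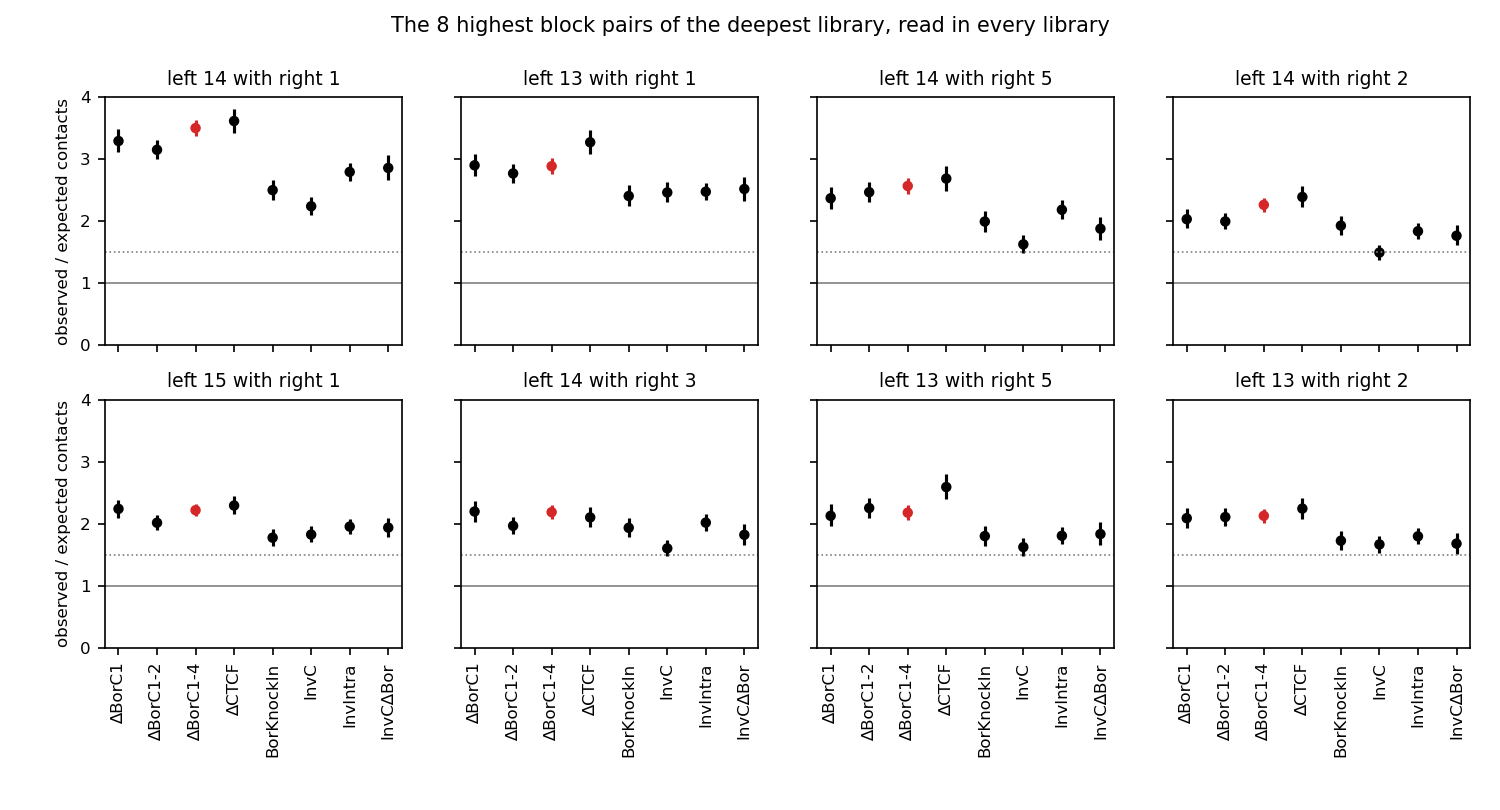
Observed over expected contact (linear axis) of the 8 highest block pairs in each of the 8 libraries, with 95% counting intervals. The red point is ∆BorC1-4, in which the pairs were chosen; grey lines mark 1 and 1.5, and all points but InvC in left 14 with right 2 lie above 1.5.

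In 20 kb steps, with distance and coverage in the expectation, the left side of these contacts was a broad rise over Map2k6. Contact with right block 1 was highest at 110250001 to 110270000, with a median of 2.92 (2.67 to 3.21 over the 8 libraries), and the steps at 80% of that or more lay between 110150001 and 110370000, where 1 step, at 110210001, was lower at 2.31. Contact with right block 5 was highest in the same step at 2.65 (2.28 to 3.62), with 80% reached from 110170001 to 110370000. The single highest step differed between libraries, from 110170001 to 110330001 for right block 1. The place is therefore known to about 0.2 Mb only.

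On the right, contact with left blocks 12 to 14 had 2 maxima. It was highest at the first step, 113040001 to 113060000, with 2.99 (2.39 to 3.68), and in all 8 libraries the highest step lay within 50 kb of this one. It fell to 1.61 at 113300001 (1.45 to 1.94) and rose again to 2.34 at 113500001 to 113520000 (1.84 to 2.80). Beyond that it was 1.72 at 113540001 and 1.41 at 113560001. The first maximum lies against the inner edge of the right flank, so its true peak may lie outside the flank and was not measured here. Without right block 1, left blocks 12 to 14 still met right blocks 2 to 5 at a median of 1.83 times this expectation, and at 1.74 (1.47 to 2.00) with distance alone.

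**Figure D3:**
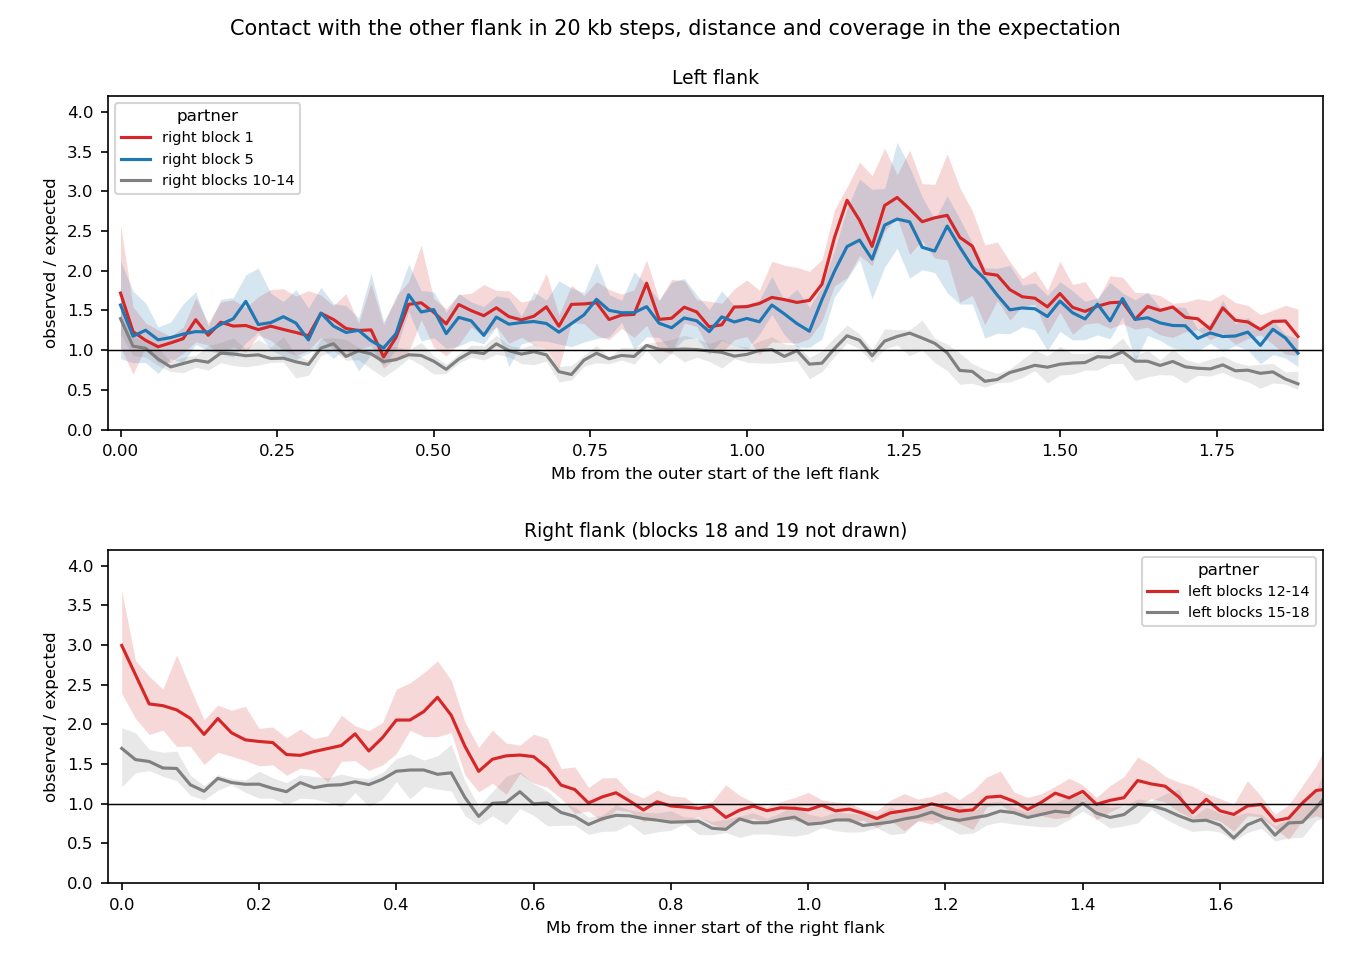
Observed over expected contact along each flank in 20 kb steps, as the median of 8 libraries (lines) and the lowest to highest library (bands). In the upper panel the left flank rises to 2.92 with right block 1 and 2.65 with right block 5, and in the lower panel the right flank has maxima of 2.99 and 2.34 with left blocks 12 to 14.

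Summed over the whole opposite flank, left block 13 stood at a median of 1.53 (1.34 to 1.71 over the 8 libraries) and left block 14 at 1.52 (1.19 to 1.69). The neighbours were lower: left block 12, where Abca5 was placed, had 1.08 and left block 15 had 1.15. The order of blocks 12 and 14 turned with coverage in the expectation, to 1.33 and 1.30, but not with balanced values, 1.26 and 1.34. Right block 1 had 1.77 (1.47 to 1.95), right block 3 had 1.40 (1.33 to 1.49), right block 5 had 1.34 (1.19 to 1.48) and right block 2 had 1.24 (1.17 to 1.35). Past block 5 the right side fell to 0.997 in block 6, where Cdc42ep4 was placed, and to 0.995 in block 7, the first with Sdk2. This step was kept with balanced values, 1.47 in block 5 and 1.11 in block 6. The lowest of the left blocks by the deepest library, blocks 1 (Rgs9) and 11, had medians of 0.981 and 0.934, which became 1.03 and 1.09 with balanced values.

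The excess of the Prkar1a and Fam20a block was smaller once coverage was taken into account. Left block 6 (109510001 to 109610000) stood at 1.41 over the opposite flank, with 1.35 to 1.47 in the 8 libraries, so no library stood apart. Its coverage was 1.04 times the map mean, against 0.746 and 0.913 for the blocks on either side. With balanced values the total was 1.15, and with coverage in the expectation 1.07. Its highest partner, right block 1, went from 1.91 to 1.56 and 1.46 in the same way. By contrast the Map2k6 block 13 went from 1.53 to 1.59 and 1.63.

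The outermost right blocks were lowest in raw counts, and less so or not at all once coverage was taken into account. Summed over the left flank, right block 18 had a median of 0.641. It stayed low with balanced values, 0.850, and had 0.966 with coverage in the expectation. Right block 19 went from 0.485 to 1.26 and 1.66 in the same way. In all 8 libraries 14 of the 361 block pairs (3.88%) stood at or under 1/1.5 of expectation, against 125 of all 761 pairs (16.4%). All 14 had right block 18 (Cd300a) or 19. The coverage of these blocks was 0.397 and 0.165 of the map mean, and that of right blocks 1 to 17 was at least 0.652. With balanced values 0 pairs were low in all 8, against 78 of all 761 (10.2%). With coverage in the expectation 1 was, against 59 (7.75%). The lowest named pair, left 18 with right 19, was at 0.405 in ∆BorC1-4 and had a median of 0.409 in the other 7, but a median of 1.56 with coverage in the expectation and 1.06 with balanced values, from 18 to 61 contacts a library. Left 16 with right 19 and left 3 with right 19 turned in the same way, to 1.62 and 1.27 with coverage in the expectation. Left 15 with right 19 went to 1.36 with coverage and 0.906 with balanced values.

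Pairs of gene-bearing blocks stood slightly above pairs with a gene-free block. Leaving out right blocks 18 and 19, the 180 pairs of gene-bearing blocks had a median of 1.12 times the expectation (library medians 1.09 to 1.14). The 75 pairs with a gene-free right block (10 to 14) had 1.05, the 48 with a gene-free left block (15 to 18) had 0.987, and the 20 with both gene-free had 0.944. With balanced values the same medians were 1.12, 0.956, 0.985 and 0.877. The gene-bearing pairs include left blocks 12 to 14 with right blocks 1 to 5, and the 165 others had a median of 1.10, or 1.09 with balanced values. Left blocks 15 to 18, although gene-free, met right blocks 1 to 5 at 1.34 (1.19 to 1.47), which turned to 0.974 (0.956 to 0.977) with left-right pairs alone as expectation. The outer gene-bearing stretches, left blocks 1 to 6 with right blocks 15 to 17 (Rpl38, Dnaic2, Btbd17, Gprc5c), stood at 1.16 (1.13 to 1.20) and at 1.05 with balanced values. Nearby left blocks 1 to 6 with the gene-free right blocks 10 to 14 had 1.09 and 0.952. These classes share blocks and libraries and rest on approximate gene placing, so no test was made.

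How far the libraries differed in contact between the flanks depended on what it was counted against. With 1 library per genotype and no wildtype, whether the edits changed this contact was not tested. Left-right contacts were 1.39% of all contacts in BorKnockIn, 1.68% in InvC, 1.74% in InvIntra and 2.00% in InvC∆Bor. The deletion libraries had 1.82% (∆CTCF), 1.73% (∆BorC1), 1.66% (∆BorC1-2) and 2.00% (∆BorC1-4), and the range over all 8 was 1.44-fold. BorKnockIn was lowest and ∆BorC1-4 and InvC∆Bor were highest. The share of all contacts at least 2 Mb apart, 4.06 to 5.92%, had a range of 1.46-fold with the same library lowest, and whether the edits or the libraries set it was not tested. Of those distant contacts, left-right pairs made up 34.2% in BorKnockIn, 32.1% in InvC, 33.4% in InvIntra and 33.8% in InvC∆Bor, and 34.6% (∆CTCF), 35.1% (∆BorC1), 33.1% (∆BorC1-2) and 35.1% (∆BorC1-4) in the deletion libraries. The range was then 1.09-fold, with InvC lowest.

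**Figure D4:**
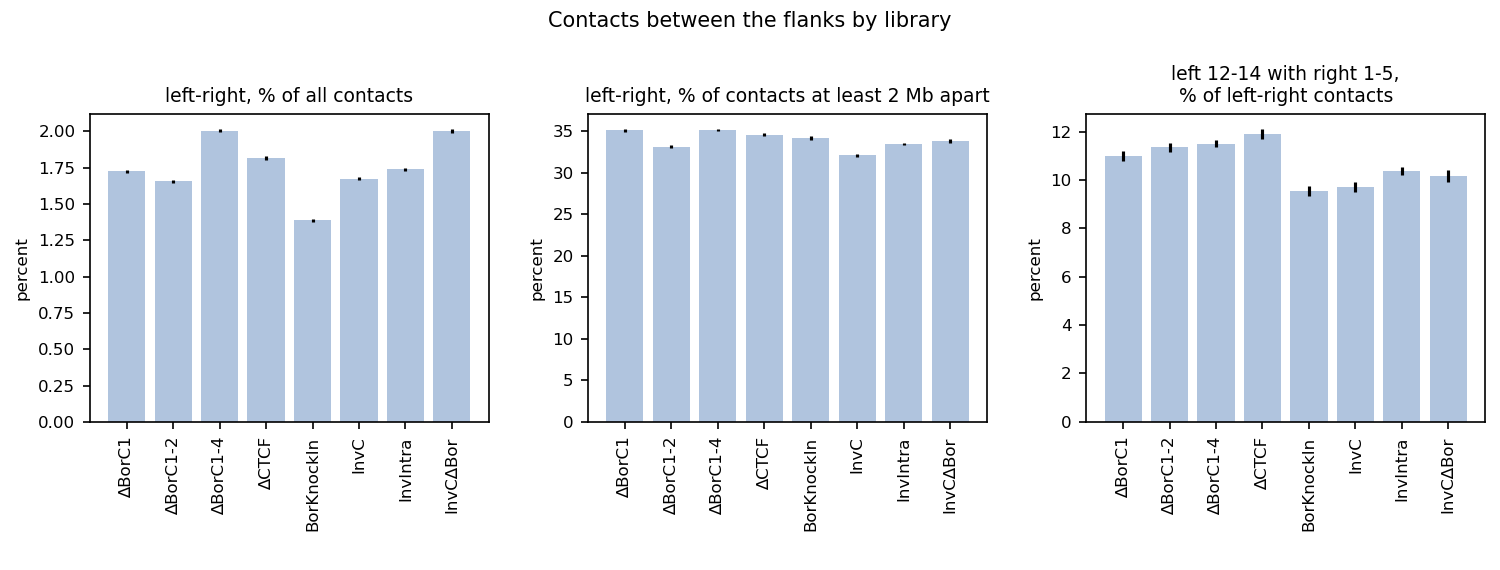
Left-right contacts as a percent of all contacts and of contacts at least 2 Mb apart, and left blocks 12 to 14 with right blocks 1 to 5 as a percent of left-right contacts, by library, with 95% Clopper-Pearson intervals. The first share runs from 1.39 to 2.00%, the next from 32.1 to 35.1% and the last from 9.55 to 11.9%.

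Taken by the planned comparisons, the deletion libraries had a median of 1.02 times the share of all contacts in InvIntra and 1.04 times its share of distant contacts. For pairs at least 3 Mb apart the first of these turned to 0.992. They differed among themselves: ∆BorC1-2 was at 0.952 times InvIntra (interval 0.944 to 0.960) and ∆BorC1-4 at 1.15 (1.14 to 1.16) for all contacts. InvC∆Bor, which shares the inversion of InvC and lacks the boundary by its label, had 1.20 times the share of InvC (1.18 to 1.21), but 1.05 times for distant contacts (1.04 to 1.06). BorKnockIn had 0.804 times the share of ∆BorC1 (0.796 to 0.812), and 0.973 times for distant contacts (0.966 to 0.981). A last reference, chosen after the data were seen, was left-right contacts plus contacts of at least 500 kb within each flank. Against it these 3 ratios were 1.17, 1.14 and 0.882. Left-right contacts made up 25.6 to 31.2% of this reference, which draws the ratios towards 1. Within-flank contacts alone were 4.54% of all contacts in both InvC∆Bor and InvC, so the smaller ratio of these 2 libraries rests on that part. The sizes of the differences thus depended on the reference. Those of InvC∆Bor and BorKnockIn were smaller against both alternative references, as defined here, than against all contacts, and that of the deletion libraries was larger.

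The Map2k6 stretch and its partners took a different share of the left-right contacts by library. Left blocks 12 to 14 with right blocks 1 to 5, a stretch chosen after the map was seen, held 11.9% of them in ∆CTCF, followed by ∆BorC1-4 with 11.5%, ∆BorC1-2 with 11.4% and ∆BorC1 with 10.99%. It held 9.55% in BorKnockIn, 9.72% in InvC, 10.4% in InvIntra and 10.2% in InvC∆Bor, from 6225 to 20849 contacts a library. As a share of all contacts the order was not the same, and InvC∆Bor stood above ∆BorC1 and ∆BorC1-2. The ratios that follow are of the share of left-right contacts. Each deletion library exceeded InvIntra, with 1.06 times its share for ∆BorC1 (1.03 to 1.09) and up to 1.15 times for ∆CTCF (1.12 to 1.18). BorKnockIn had 0.869 times the share of ∆BorC1 (0.845 to 0.894), and InvC∆Bor 1.05 times that of InvC (1.01 to 1.08). Without right block 1 the last ratio was 1.02 (0.986 to 1.06), which this depth does not separate from 1.

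The order of the libraries by the share of this stretch was like that by how fast contact fell with distance between the flanks. The 2 orders were not the same: InvIntra and InvC∆Bor changed places, as did ∆BorC1-2 and ∆BorC1-4. The measure of the fall holds part of the same contacts, so some of the likeness is built in, and no cause was tested. The mean count per bin pair under 3 Mb over that from 4.5 Mb, which includes these blocks, was 3.47 in BorKnockIn, 3.53 in InvC, 3.95 in InvIntra, 4.01 in InvC∆Bor, 4.21 in ∆BorC1, then 4.59 (∆BorC1-4), 4.67 (∆BorC1-2) and 4.83 (∆CTCF). Against the distance expectation of all pairs, the stretch stood at 1.62 (InvC) to 2.25 (∆CTCF), and against that of left-right pairs alone at 1.39 (BorKnockIn) to 1.54 (∆CTCF). In single block pairs, all 4 deletion libraries lay above all 4 others in 28 of 361 (7.76%), against 59 of all 761 pairs (7.75%), a like share in that direction. They lay below all 4 others in 1 of the 361 and in 95 of the 761, so that separation in either direction was seen in 29 left-right pairs (8.03%) and in 154 of all 761 (20.2%). The deletion libraries lay above the others in 7 of the 8 highest pairs, also without ∆BorC1-4, and in 2 of the 8 with left-right pairs alone as expectation. These 8 pairs were chosen in ∆BorC1-4, itself a deletion library, and leaving it out does not undo that choice. No conclusion is drawn from this count.

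InvC placed a larger share of its contacts between the flanks in left blocks 1 to 11 than the other 7 libraries did. Left blocks 1 to 6 with right blocks 1 to 5 held 9.97% of its left-right contacts (9.77 to 10.2), 1.20 times the median of the others, whose values ran from 7.92 to 8.70%. Left blocks 7 to 11 with the same right blocks held 10.8%, or 1.17 times that median. The inner left blocks held less: 12 to 14 with right 1 to 5 were at 0.884 times the median of the others, 15 to 19 at 0.887, and 12 to 19 with right 6 to 19 at 0.909. InvC∆Bor, with the same inversion, differed from its own reference median by less: 1.05, 1.06, 1.02, 0.925, 0.947 and 1.00 for the same stretches in that order. BorKnockIn shared the low values of the inner left blocks with right 1 to 5 (0.869 and 0.871) but not the high ones of left 1 to 6 (0.996). It departed from the others elsewhere too, with 0.896 for left 7 to 11 with right 1 to 5. For left 12 to 19 with right 6 to 19 it had 1.10, the opposite direction to InvC. With 1 library of InvC, its genotype and the library cannot be told apart.

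**Figure D5:**
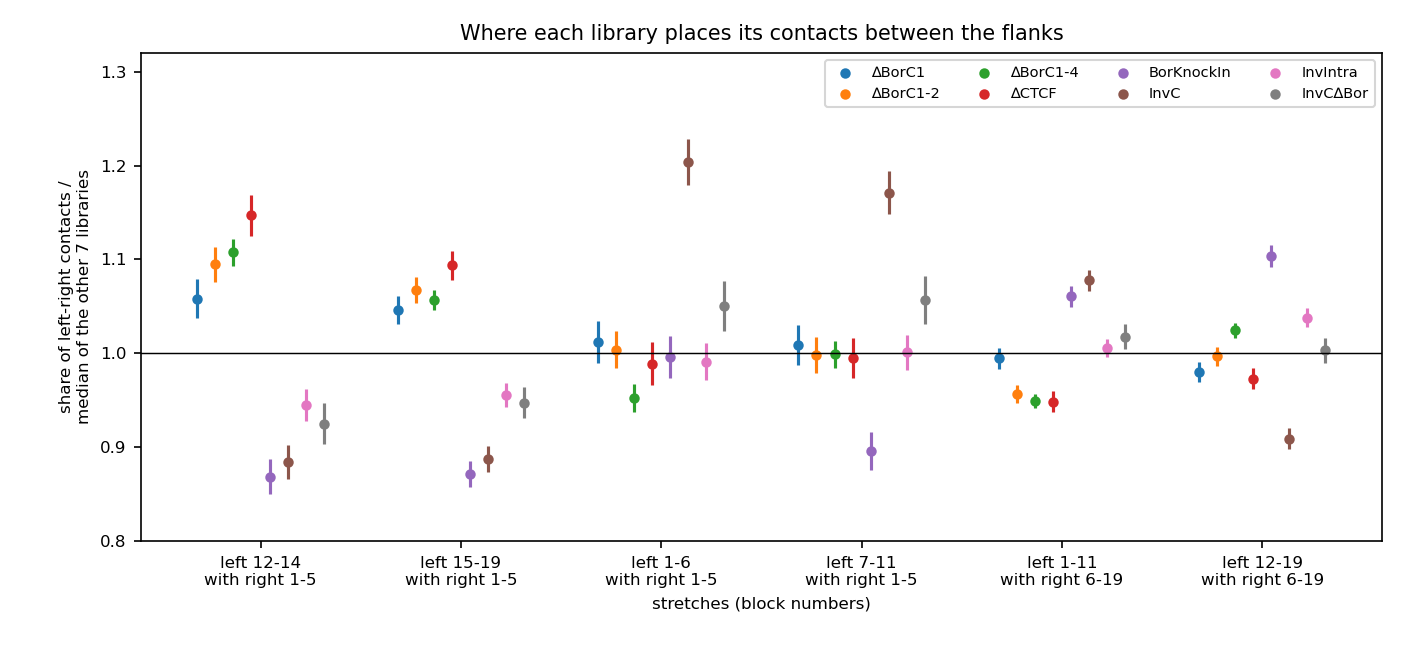
Share of left-right contacts in 6 stretches of block pairs, divided by the median share of the other 7 libraries, with 95% counting intervals of the share. InvC (brown) is highest at 1.20 and 1.17 for left blocks 1 to 6 and 7 to 11 with right blocks 1 to 5. It is also highest, at 1.08, for left blocks 1 to 11 with right blocks 6 to 19, and lies below 1 for left blocks 12 to 19.

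Block by block, few left-right pairs moved by 1.5-fold in the 10 planned comparisons, with each library thinned to the 3056502 contacts of the shallowest. Left-right counts were scaled to the same left-right total, so a change in that total does not show here. The percentages over all distant pairs include pairs with a block between the flanks, in the stretch with the Kcnj2 to Sox9 region. They are therefore no unedited reference. Of block pairs with at least 50 contacts on average, the share moved by 1.5-fold or more in 0 of 342 for InvC∆Bor against InvC (1.81% over all distant pairs), and in 2 of 331 for BorKnockIn against ∆BorC1 (9.01%). It did so in 4 of 339 for InvIntra against InvC (8.82%), and against InvIntra in 3 of 337 for ∆BorC1 (7.44%), 6 of 333 for ∆BorC1-2 (8.9%), 1 of 341 for ∆BorC1-4 (10.2%) and 7 of 337 for ∆CTCF (12.2%). Over all 10 planned comparisons 30 such values were found among 3369, and 1 past 2-fold. Over all 28 pairs of libraries the number ran from 0 to 14. The highest was 14 of 327 (4.28%) for BorKnockIn over ∆BorC1-2, with 11.8% over all distant pairs. The steps between deletion libraries gave 1 of 332 (∆BorC1-2 over ∆BorC1, 0.568% over all distant pairs), 4 of 340 (∆BorC1-4 over ∆BorC1-2, 1.54%) and 2 of 337 (∆CTCF over ∆BorC1-4, 0.704%). Counting alone gives a spread at this depth: over the 28 pairs of libraries the SD of log2 ratios was 1.01 to 1.53 times the counting SD, with a median of 1.18. Pairs with InvC had a median of 1.46 and pairs of deletion libraries 1.09.

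The block maps of the 8 libraries resembled each other. Pearson's r of log2 observed over expected across 323 block pairs, thinned and without right blocks 18 and 19, ran from 0.669 to 0.885 over the 28 pairs of libraries, with a median of 0.830. Block pairs share capture probes and coverage, so this describes likeness and has no test. The median was 0.777 for pairs with InvC and 0.869 for pairs of deletion libraries.

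Within the left flank the leading blocks (6, 13, 14 and 15) stood above other pairs in raw counts, and the difference was not kept with coverage in the expectation. At 500 kb or more, pairs of these blocks stood at 0.681 times the expectation against 0.505 for pairs of the other left blocks. With balanced values the medians were 0.683 and 0.672, and with coverage in the expectation 0.683 and 0.738. No pair of the leading right blocks lay 500 kb apart.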

How the data were processed

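Capture Hi-C libraries of limb buds from 8 mouse mutants, 1 per genotype, were analysed. Bowtie2 2.2.6, Juicer and the mm9 build are named, per the submitters' processing notes. How reads were filtered is not given in the sources used. The deposited raw maps hold counts: for each pair of 10 kb bins, the joined read pairs. The deposited KR (Knight-Ruiz) maps hold a signal that the authors balanced from those counts; the balanced values are not scaled between libraries.

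Counts were summed in 100 kb blocks (Python 3.11.15; scipy 1.17.1, numpy 2.4.6, pandas 2.3.3; plots with matplotlib 3.10.9). Expectations were each library's mean at each distance, in a window of 5 bins either side. In the coverage expectation each pair was weighted by the product of its bins' coverage, a bin's share of all raw contacts. Libraries were thinned without replacement to 3056502 contacts. Intervals are 95%: exact Poisson for contacts, exact Clopper-Pearson for shares and log-normal for ratios of shares, all for counting error only. The calculations were tested on simulated maps.

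Named pairs were the 8 highest and 4 lowest block pairs of the deepest library, ∆BorC1-4, with at least 50 expected contacts, described as read in the other 7, and the 4 highest and 2 lowest left and right blocks by the same library. The members and lists were chosen with earlier results of these data known. The wildtype and the remaining mutant were not analysed here. Alternatives were KR values, other expectations, distance, shift, depth, block size and fold.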

Additional observations from a re-analysis of the deposited data

How the results depend on the processing

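No paired analysis was possible because each genotype had 1 library. Against all contacts, the highest library over the lowest, 1.44, became 1.41 with KR values and 1.42 at 3 Mb or more. It was 1.46 and 1.43 with BorKnockIn not shifted or read 2 bins left. With left-right plus within-flank contacts as denominator (the flank denominator) it was 1.22. The deletion median over InvIntra, 1.02, became 1.03 with KR values and 1.17 with that denominator, and turned to 0.992 at 3 Mb or more, so its direction rests on pairs under 3 Mb. InvC∆Bor over InvC, 1.20, became 1.17 at 3 Mb or more and 1.14 with the flank denominator, and BorKnockIn over ∆BorC1, 0.804, became 0.833, 0.882 and, 2 bins left, 0.813. Against contacts at least 2 Mb apart, the 4 ratios at 3 Mb or more were 1.06, 1.03, 1.03 and 0.982. KR values gave 1.11 for the highest over the lowest, 1.06 for the deletion median and 0.963 for BorKnockIn over ∆BorC1, which was 0.965 not shifted and 0.984 when read 2 bins left. Left 14 with right 1, 3.01, moved to 2.38 (coverage), 2.04 (left-right pairs as expectation), 2.60 (KR) and 4.09 (50 kb). Left 12 to 14 with right 1 to 5, at 1.91, moved to 1.98 (coverage), 1.46 (left-right pairs), 1.98 (KR) and 1.74 (without right block 1). For the share of that stretch, the highest over the lowest, 1.25, was 1.20 without right block 1 and 1.74 as a share of all contacts. BorKnockIn over ∆BorC1 was 0.895 and 0.699 in these settings, and InvC∆Bor over InvC as a share of all contacts was 1.25. Pairs high in all 8 libraries, 12, fell to 2 at 2-fold, and pairs low in all 8, 14, to 2 at 2-fold, 1 with coverage and 0 with KR values. Over all 761 pairs, 23 were high and 51 low at 2-fold, and 59 were low with coverage and 78 with KR values. The sum of 30 differences between libraries became 1 at 2-fold, 17 at full depth and 114 with KR values, of which 13 were left without right blocks 18 and 19 (23 with counts). The median r, 0.830, was 0.662 with 50 kb blocks. The totals moved with coverage and KR values to 1.63 and 1.59 (left 13), 1.30 and 1.34 (left 14), 1.07 and 1.15 (left 6), 1.63 and 1.69 (right 1), and 1.498 and 1.47 (right 5). Without each library in turn they ran from 1.48 to 1.59, 1.51 to 1.53, 1.40 to 1.42, 1.76 to 1.77, and 1.29 to 1.39. The ratio of leading to other pairs within the left flank, 1.35, was 1.02 with KR values and turned to 0.925 with coverage. Of the low pairs with right block 19, coverage and KR values turned left 18 to 1.56 and 1.06, left 16 to 1.62 and 1.02 and left 3 to 1.27 and 1.27, and coverage turned left 15 to 1.36. The cause of these moves was not tested. Settings with the flank denominator, the stretch of left 12 to 14, right blocks left out and the coverage expectation within a flank were chosen after seeing the data. So were the gene classes, the 20 kb profiles and the count of block pairs that separate all 4 deletion libraries from the others. Depth limits single block pairs: the shallowest library had a median of 147 contacts in each.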
